A study of Danio rerio with 12 samples.

Results

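The genes examined here encode splicing factors and heterogeneous nuclear ribonucleoproteins (hnRNPs), the proteins that recognize introns, build the spliceosome on them and coat nascent transcripts. They were chosen by symbol, as the Ensembl genes whose zebrafish symbol begins with srsf, hnrnp, sf3a, sf3b, snrp, prpf or u2af, and by level, with more than 1 CPM (a count scaled by the total of its library) in at least 3 of the 12 libraries. The symbols matched 77 of the 25432 genes in the tables, and 73 of these passed the level filter, among 15829 genes that did so in all. The 73 genes fell into 7 classes, with 22 hnrnp, 17 srsf, 11 snrp, 11 prpf, 6 sf3b, 3 sf3a and 3 u2af genes. Many of these symbols are those of the human ortholog, and 7 symbols are each carried by a pair of the 73 Ensembl genes, which are given with their identifiers.

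Total RNA was sequenced from pools of whole zebrafish embryos after removal of ribosomal RNA and without selection for poly(A) tails, at 6 and 1 hours postfertilization (hpf). The 6 hpf embryos follow, and the 1 hpf embryos precede, the maternal-to-zygotic transition (MZT), the period of clearance of the maternal mRNA store and onset of zygotic transcription. The MZznf598 embryos carried a znf598 knockout and lacked both the maternal and the zygotic product of this gene, which encodes a ubiquitin ligase of the ribosome quality control pathway. They came from 1 mutant allele, a frameshift deletion, and were compared with wild-type embryos of the AB strain, with 3 libraries in each of the 4 groups of genotype and stage. The labels name no other treatment. The labels do not state that the 3 libraries of a group came from separate clutches, so p-values measure the spread between these samples only. In RNA from whole embryos, fewer cells of a type and less RNA per cell cannot be told apart.

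In splicing, U1 small nuclear RNP pairs with the start of an intron, U2AF binds the polypyrimidine tract and the AG at its end, and U2 small nuclear RNP with its SF3A and SF3B proteins settles on the branch point before the tri-snRNP joins and the catalytic core forms. SR proteins, encoded by the srsf genes, bind exonic sequences and help these steps, whereas hnRNPs coat pre-mRNA and often block splice sites. Embryos begin life with a maternal store of these mRNAs, and the first zygotic transcripts are short and have few introns. Roles named below are those known for the human or yeast proteins.

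Library totals ran from 7144704 to 12162660 counts. The mRNA of znf598 itself (ENSDARG00000014945) was at 9.33, 10.5 and 8.14 CPM in MZznf598 and at 112, 103 and 62.7 CPM in wild type at 6 hpf, and at 3.6, 3.71 and 3.45 CPM in MZznf598 against 130, 142 and 128 CPM in wild type at 1 hpf, so it was low in every library labelled as mutant. Here and below, CPM values are normalized with TMM factors, the trimmed mean of M values. The stage labels fitted the markers, apart from the maternal mRNA ccnb1 in wild type. The summed level of 12 zygotic gastrula mRNAs was 4279 to 5034 CPM at 6 hpf and 7.20 to 21.1 CPM at 1 hpf, and that of 9 maternal mRNAs, of which mos was at 0 in every library, was 1436 to 2272 CPM at 6 hpf and 3799 to 5326 CPM at 1 hpf. Most of the maternal sum at 6 hpf was ccnb1. In wild type ccnb1 was at 1530, 1520 and 1100 CPM at 6 hpf and at 1220, 1240 and 1900 CPM at 1 hpf, which overlapped. Each of the other detected maternal mRNAs was lower at 6 hpf than at 1 hpf in both genotypes. Markers of muscle, liver and lens summed to 103 to 156 CPM at 6 hpf, of which tfa was 95.1 to 130 CPM, and to 1.31 to 2.83 CPM at 1 hpf. The muscle markers myl1 and ckma were at 20.6 and 5.7 CPM in MZznf598 replicate 2 at 6 hpf and at most at 7.66 and 2 CPM in any other library, and cryaa of the lens was at or near 0 in all of them, while the blood markers hbae1 and hbbe1 and the liver marker fabp10 matched no symbol. Replicate 3 of wild type stood apart from the other wild-type libraries at both stages. Its chi-square distance per degree of freedom to them was 14.3 to 20.7, against 2.61 to 5.36 between the other libraries of a group. Its summed maternal markers were 1436 CPM at 6 hpf, below the 2159 and 2272 CPM of the other wild-type libraries, and 5326 CPM at 1 hpf, above their 3799 and 3807 CPM. Single markers did not all move with these sums. At 1 hpf zar1 was at 62.7 CPM in replicate 3 against 93.5 and 86.1 CPM, and btg4 at 111 CPM against 154 and 148 CPM. At 6 hpf zp3 was at 61.3 CPM in replicate 3 against 47.6 and 41.7 CPM. The 4 groups are therefore also described without both libraries of this replicate where that changes a value.

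The 73 genes together held 2.7%, 2.78% and 2.71% of the counts of the MZznf598 libraries at 6 hpf, and 2.54%, 2.62% and 3.16% of those of wild type. At 1 hpf they held 1.23%, 1.23% and 1.25% in MZznf598 and 1.17%, 1.17% and 1.34% in wild type. Every 6 hpf library thus lay above every 1 hpf library, and at each stage the 3 MZznf598 libraries fell inside the range of the wild-type libraries. The highest wild-type share at either stage was that of replicate 3. The genes named hnrnpab (ENSDARG00000099865 and ENSDARG00000007960) and hnrnpu (ENSDARG00000004735 and ENSDARG00000015206) together hold a sizeable part of these counts. Without them the share was 1.93% to 2.30% at 6 hpf and 0.892% to 0.990% at 1 hpf.

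**Figure D1:**
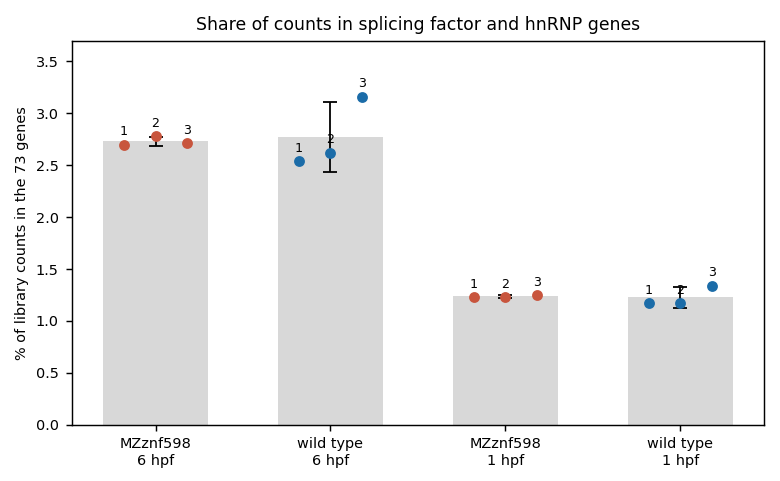
Share of each library's counts in the 73 splicing factor and hnRNP genes, in percent. Bars and error bars show the mean and SD of 3 libraries, points are single libraries with their replicate numbers, red for MZznf598 and blue for wild type. All 6 hpf libraries lie between 2.54% and 3.16% and all 1 hpf libraries between 1.17% and 1.34%.

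To describe the change over the MZT, 6 hpf was compared with 1 hpf in each genotype. In MZznf598, 69 of the 73 mRNAs rose and 2 fell at an adjusted p below 0.01 in edgeR's quasi-likelihood test with Benjamini-Hochberg adjustment over all genes tested, where 36.3% of all 15829 genes rose and 33.7% fell. Their median log2 fold change was 1.52, against -0.01 for all genes. In wild type, 69 mRNAs rose and none fell by the same rule, where 36.5% of all genes rose and 33.9% fell. Of the 73 mRNAs, 3 had a negative change with an unadjusted p below 0.05 in wild type, hnrnpc, hnrnph3 and srsf7. DESeq2 called no fall of the 73 there, and the share of all genes that it called is not given here. The wild-type median was 1.5, or 2.84-fold, against -0.02 for all genes, with 63 mRNAs above 1 and 19 above 2. The libraries of the stages did not overlap for 72 of the 73 mRNAs in MZznf598 and for 71 in wild type, shares of 98.6% and 97.3% against 84.9% and 77.4% of all genes.

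Of the 73 genes, 70 exceeded 1 CPM in all 12 libraries, and of those 70, 68 rose in each genotype, 1 fell in MZznf598 and none in wild type. The other 3 were hnrnpa0b, above 1 CPM in 3 libraries with at most 1.55 CPM, srsf7 (ENSDARG00000101057), above it in 5 with at most 1.68 CPM, and hnrnph3, above it in 6 with at most 3.49 CPM (here CPM of the unscaled library total). The first passed only through 6 hpf libraries and the other two only through 1 hpf libraries, so each passed through the stage where it is higher, and its direction between stages is a description that the filter had a part in. Of the 4 genes that failed the filter, srsf3a (ENSDARG00000100815) and a gene named snrpd3 (ENSDARG00000013800) had 0 counts in every library, which allows an expected count of up to 3 in each, hnrnpa3 (ENSDARG00000059351) had 0 to 7 counts and hnrnpa0a (ENSDARG00000089302) had 0 to 3 counts. A floor of 3 counts lay between 0.197 and 0.508 TMM-normalized CPM over the libraries, and covers counting error only.

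The size of the change depended on how libraries were scaled. In wild type the median change of all genes was -0.02 with TMM, 0.12 with the size factors of DESeq2 and -0.55 with library totals alone, and that of the 73 mRNAs was 1.5, 1.65 and 0.97. Relative to all genes, the median of the 73 mRNAs was 1.52 to 1.53 higher under each of the 3 scalings. A change of scaling moves the log2 fold changes of all genes by nearly the same amount, so this difference had little room to vary. It is therefore not a separate check of the rise. With library totals alone, 65 of the 73 mRNAs rose and 4 fell in MZznf598, and 64 rose and 4 fell in wild type. The shares of all genes called under this scaling are not given here, so these counts stand without a background. The 4 that fell in both genotypes were hnrnpc, hnrnph3, srsf7 (ENSDARG00000101057) and prpf18. The rises no longer called with library totals were 4 in MZznf598, those of hnrnpk (ENSDARG00000007034), hnrnph1, prpf4 and srsf10b, with log2 fold changes of 0.09 to 0.57, and 5 in wild type, those of the same 4 and prpf38b, with 0.02 to 0.32.

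**Figure D2:**
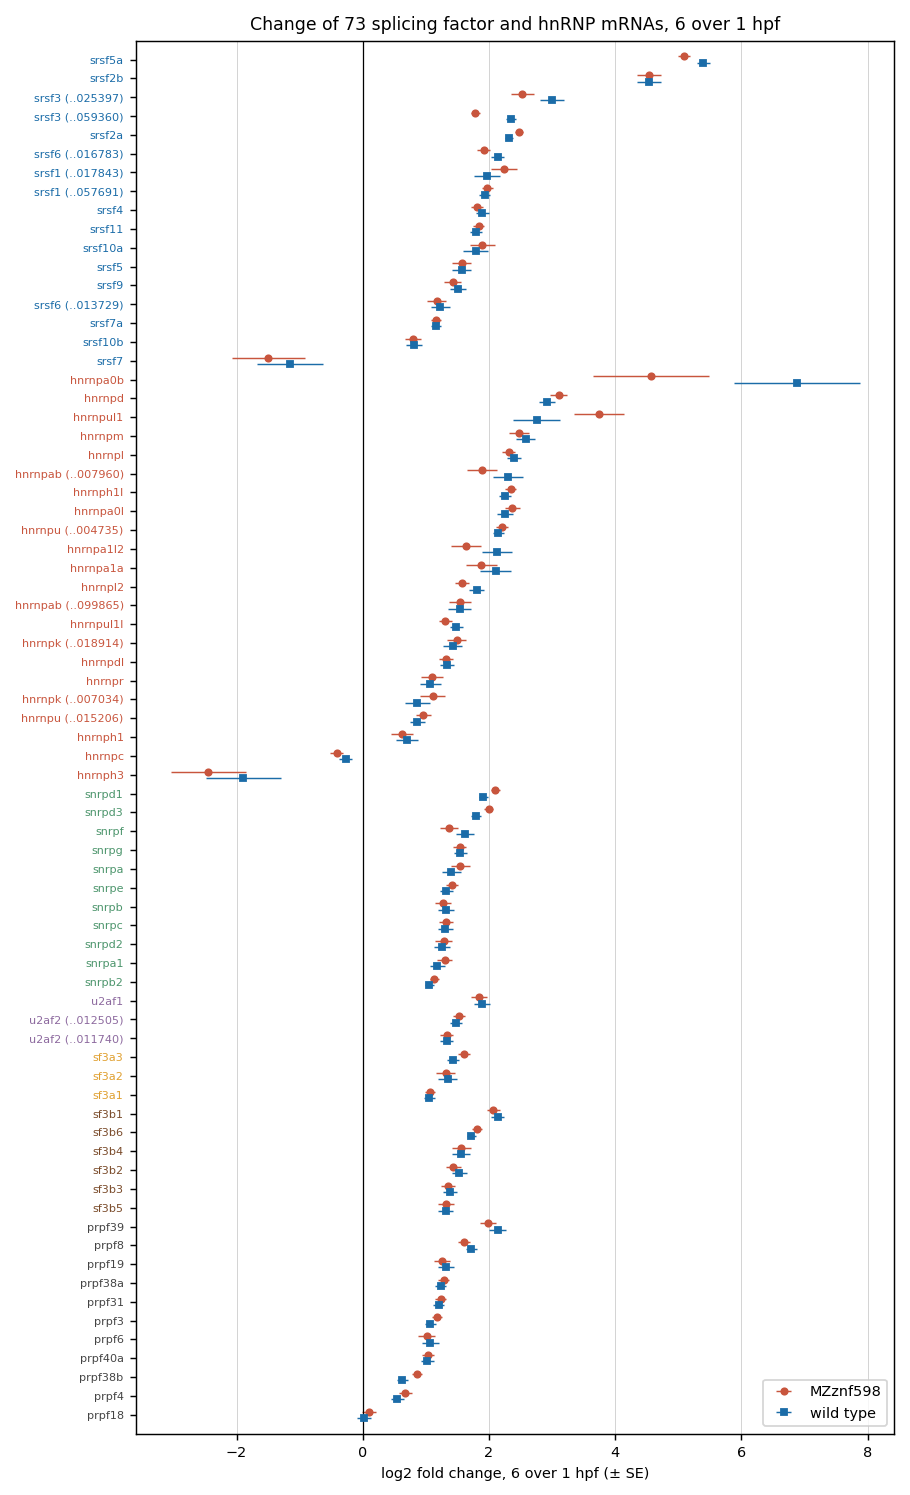
Log2 fold change of each of the 73 mRNAs at 6 over 1 hpf, with standard errors, in MZznf598 (red circles) and wild type (blue squares), grouped and coloured by class and sorted by the wild-type value. Most points lie between 1 and 2.5 in both genotypes, and hnrnpc, hnrnph3 and srsf7 lie below 0. The fitted values of hnrnpa0b, which had no counts at 1 hpf in wild type, depend on the prior count.

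The classes differed in how far and how evenly their mRNAs moved. In MZznf598 the median log2 fold change was 1.83 for srsf, 1.60 for hnrnp, 1.52 for u2af, 1.5 for sf3b, 1.37 for snrp, 1.31 for sf3a and 1.18 for prpf genes. In wild type it was 1.95 for hnrnp, 1.90 for srsf, 1.54 for sf3b, 1.47 for u2af, 1.34 for sf3a, 1.32 for snrp and 1.07 for prpf genes. The srsf and hnrnp mRNAs had the highest medians in both genotypes, and the prpf mRNAs, many of which encode parts of the tri-snRNP, the lowest. In MZznf598 the hnrnp median lay close to those of u2af and sf3b, and the quartiles of the hnrnp mRNAs were 1.16 and 2.33. The range in wild type was narrow for the 11 snrp genes, 1.05 to 1.91 (SD across genes 0.26). The SD was also small for sf3a (0.20), u2af (0.29) and sf3b (0.30). The range was wide for the 17 srsf genes, -1.15 to 5.4 (SD 1.42), and the 22 hnrnp genes, -1.89 to 6.88 (SD 1.57). The values -1.15, -1.89 and 6.88 are those of srsf7 (ENSDARG00000101057), hnrnph3 and hnrnpa0b, which had low counts. No test was made between classes.

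The srsf mRNAs had the largest measured rises. The mRNA of srsf5a (ENSDARG00000029818), an SR protein gene, was at 1100, 1014 and 1095 CPM at 6 hpf and 32.5, 31.0 and 31.1 CPM at 1 hpf in MZznf598. In wild type it was at 1308, 1331 and 1147 CPM at 6 hpf and 31.2, 27.3 and 31.4 CPM at 1 hpf. It was low and even in all 6 libraries at 1 hpf. At 6 hpf it was 33.9-fold higher in MZznf598 (log2 fold change 5.08, SE 0.10, edgeR adjusted p = 1.47e-13) and 42.1-fold higher in wild type (5.4, SE 0.10, edgeR adjusted p = 1.25e-13). Next came srsf2b (ENSDARG00000103893), which like srsf2a encodes a protein related to human SRSF2, a factor that binds exonic enhancers. It was at 146, 152 and 165 CPM at 6 hpf and 7.48, 6.29 and 6.02 CPM at 1 hpf in MZznf598, a 23.3-fold rise. In wild type it was at 140, 155 and 174 CPM at 6 hpf and 7.03, 8.73 and 4.33 CPM at 1 hpf, a 23.1-fold rise (log2 fold change 4.53, SE 0.19, edgeR adjusted p = 1.19e-10). No library of srsf2b at 6 hpf came near any library at 1 hpf.

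The mRNA of srsf2a (ENSDARG00000057484) rose 5.57-fold in MZznf598 and 4.99-fold in wild type, and its level at 1 hpf was 176 ± 4.98 CPM in MZznf598 and 171 ± 4.93 CPM in wild type (SD, n = 3). A pair of genes named srsf3 encode the smallest SR protein, which also takes part in mRNA export. The gene ENSDARG00000025397 rose 5.77-fold in MZznf598 and 7.97-fold in wild type, and ENSDARG00000059360 rose 3.44-fold in MZznf598 and 5.08-fold in wild type. Of the other srsf mRNAs, 11 rose by 0.81 to 2.14 on the log2 scale in wild type, among them srsf1, srsf4, srsf6, srsf9, srsf10a and srsf11. The mRNA of srsf7 (ENSDARG00000101057) was at most at 1.47 CPM in any library and its log2 fold change missed the threshold at -1.5 in MZznf598 (edgeR adjusted p = 0.031) and at -1.15 in wild type (edgeR adjusted p = 0.060). Only libraries at 1 hpf, where srsf7 is higher, had carried it past the filter, so its direction is a description only.

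Among the hnrnp mRNAs, 20 of 22 rose in each genotype. This count includes hnrnpa0b, which had passed the filter only through libraries at 6 hpf, where it is higher, so its direction is a description only. The largest rise by its fitted value was that of hnrnpa0b (ENSDARG00000036162), which was at 0.999, 0.292 and 1.29 CPM at 6 hpf and had 0, 1 and 0 counts at 1 hpf in MZznf598. In wild type it was at 1.19, 1.86 and 1.19 CPM at 6 hpf and had 0 counts in all 3 libraries at 1 hpf. Against the floor of 3 counts in a library the mean of wild type is at least 5.75-fold higher at 6 hpf. No bound is given for MZznf598, where 1 of the 6 hpf libraries was itself under the floor. Among well-detected mRNAs, hnrnpd (ENSDARG00000059246), whose human protein binds AU-rich elements, rose 8.61-fold to 73.2 ± 7.70 CPM at 6 hpf in MZznf598 and 7.55-fold to 77.0 ± 9.14 CPM in wild type (SD, n = 3). The mRNA of hnrnpul1 rose 13.4-fold in MZznf598 and 6.75-fold in wild type, the wild-type value resting on 1 hpf libraries that ranged from 21.9 to 89.7 CPM. That of hnrnpm rose 5.55-fold in MZznf598 and 5.98-fold in wild type, and that of hnrnpl, whose human protein binds CA repeats, 4.96-fold in MZznf598 and 5.26-fold in wild type. The mRNA of hnrnpu (ENSDARG00000004735), a nuclear scaffold protein that binds both RNA and DNA, was at 3750, 3868 and 3847 CPM at 6 hpf and 843, 830.1 and 811 CPM at 1 hpf in MZznf598, and at 3240, 3451 and 4058 CPM at 6 hpf and 756, 785 and 884 CPM at 1 hpf in wild type. It rose 4.61-fold in MZznf598 and 4.43-fold in wild type (log2 fold change 2.15, SE 0.09, edgeR adjusted p = 1.29e-10).

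The mRNA of hnrnpc (ENSDARG00000053810), whose human protein binds uridine tracts and hinders U2AF there, went against the class. It was at 104, 97.1 and 88.6 CPM at 6 hpf and 129, 132 and 125 CPM at 1 hpf in MZznf598, and at 110, 106 and 99.6 CPM at 6 hpf and 116, 117 and 149 CPM at 1 hpf in wild type. All 6 hpf libraries lay below all 1 hpf libraries in each genotype. The fall passed the threshold in MZznf598 (log2 fold change -0.41, SE 0.10, edgeR adjusted p = 0.0026) but not in wild type (-0.27, SE 0.10, edgeR adjusted p = 0.027), and the interaction of genotype and stage was not called for it (-0.14, edgeR adjusted p = 0.86). Without both libraries of wild-type replicate 3 the wild-type change was -0.11 (edgeR adjusted p = 0.21). In MZznf598 the call was lost without replicate 2 at 1 hpf (edgeR adjusted p = 0.011), with the size factors of DESeq2 and in DESeq2 itself (log2 fold change -0.27 in each). The mRNA of hnrnph3 (ENSDARG00000039466), of a family that binds runs of G, was low throughout, at 0.416 ± 0.262 CPM at 6 hpf and 2.26 ± 0.604 CPM at 1 hpf in MZznf598 and at 0.397 ± 0.398 CPM at 6 hpf and 1.59 ± 0.274 CPM at 1 hpf in wild type (SD, n = 3). It had passed the filter only through libraries at 1 hpf, where it is higher. Its log2 fold change was -2.45 in MZznf598 (edgeR adjusted p = 0.0019), a call that was lost without replicate 3 at 6 hpf (-2.06, edgeR adjusted p = 0.012), and its fold change of -1.89 in wild type lay at the threshold (edgeR adjusted p = 0.0102). In wild type its fall was called without MZznf598 replicate 3 (-1.92) and without wild-type replicate 2 (-2.82) at 6 hpf.

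The snrp mRNAs rose as a narrow group, all 11 in each genotype. Rings of Sm proteins surround the small nuclear RNAs of the spliceosome, and the mRNAs of their proteins snrpb, snrpd1, snrpd2, snrpd3 (ENSDARG00000076283), snrpe, snrpf and snrpg had log2 fold changes of 1.26 to 1.91 in wild type. The highest of them, snrpd1 (ENSDARG00000011648), was at 212, 219 and 210.0 CPM at 6 hpf and 49.99, 51.8 and 48.0 CPM at 1 hpf in MZznf598, a 4.28-fold rise. In wild type it was at 186, 202 and 202 CPM at 6 hpf and 51.2, 53.4 and 52.5 CPM at 1 hpf, a 3.75-fold rise (log2 fold change 1.91, SE 0.07, edgeR adjusted p = 4.48e-11), and the libraries of each group were close to each other. The U1 proteins snrpa (1.40) and snrpc (1.31) and the U2 proteins snrpa1 (1.18) and snrpb2 (1.05) had wild-type log2 fold changes close to the rest.

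The factors that define the branch point and the end of the intron rose with them. All 3 u2af genes rose in each genotype. The mRNA of u2af1 (ENSDARG00000015325), the subunit that contacts the terminal AG, was at 265, 273 and 249 CPM at 6 hpf and 75, 70.9 and 73.4 CPM at 1 hpf in MZznf598, and at 246, 261 and 311 CPM at 6 hpf and 61.8, 67.6 and 91.7 CPM at 1 hpf in wild type. Its rise was 3.59-fold in MZznf598 and 3.7-fold in wild type (log2 fold change 1.89, SE 0.13, edgeR adjusted p = 2.02e-08). The genes named u2af2, which encode the subunit that binds the polypyrimidine tract, rose 2.87-fold and 2.51-fold in MZznf598 and 2.78-fold and 2.51-fold in wild type (ENSDARG00000012505 and ENSDARG00000011740 in this order). All 3 sf3a and all 6 sf3b genes rose as well, between 1.05 and 2.14 on the log2 scale in wild type. The mRNA of sf3b1 (ENSDARG00000056138), whose protein clamps the branch helix, was at 1033, 950 and 1009 CPM at 6 hpf and 270, 230 and 213 CPM at 1 hpf in MZznf598, and at 890, 961 and 923 CPM at 6 hpf and 212, 228 and 191 CPM at 1 hpf in wild type. It rose 4.2-fold in MZznf598 and 4.39-fold in wild type (log2 fold change 2.14, SE 0.10, edgeR adjusted p = 2.72e-10), and sf3a3 (ENSDARG00000100114), the sf3a mRNA with the largest rise, rose 3.05-fold in MZznf598 and 2.68-fold in wild type.

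The prpf mRNAs had the smallest median rise, with 10 of 11 called in each genotype. At the top was prpf39 (ENSDARG00000100209), of a family that belongs to U1 in yeast, at 377, 385 and 390 CPM at 6 hpf and 93.7, 96.8 and 101 CPM at 1 hpf in MZznf598, and at 349, 363 and 447 CPM at 6 hpf and 80.8, 74.5 and 109 CPM at 1 hpf in wild type. It rose 3.95-fold in MZznf598 and 4.39-fold in wild type (log2 fold change 2.14, SE 0.13, edgeR adjusted p = 5.62e-09). The mRNA of prpf8 (ENSDARG00000026180), the scaffold of the catalytic core, rose 3.04-fold in MZznf598 and 3.30-fold in wild type. At the bottom was prpf18 (ENSDARG00000058306), whose yeast protein acts in the later catalytic step. It was at 35.3, 38.9 and 37.0 CPM at 6 hpf and 34.8, 37.3 and 32.0 CPM at 1 hpf in MZznf598, and at 31.9, 37.0 and 39.1 CPM at 6 hpf and 32.8, 35.0 and 38.6 CPM at 1 hpf in wild type. These libraries overlapped in each genotype, and the wild-type log2 fold change was 0.02 (SE 0.11, edgeR adjusted p = 0.87). The mRNAs of prpf4 and prpf3, which sit together in the tri-snRNP, had wild-type log2 fold changes of 0.54 and 1.07, and those of prpf6 and prpf31, also of the tri-snRNP, 1.06 and 1.20.

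Where these zebrafish genes come in pairs, by a shared symbol or by a final a or b, the members often changed by unequal amounts. For each of 12 pairs, the log2 ratio of the counts of the pair was taken in each library, so that scaling cancels, and its change at 6 over 1 hpf was described without a test. The wild-type log2 fold changes of the pair differed by more than 1 for 4 pairs and by less than 0.25 for 2. Reads that align equally well to near-identical copies were not counted, so the level of each copy is uncertain to that extent.

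The largest shift was that of srsf5a over srsf5 (ENSDARG00000027734). Their log2 ratio was 3.5, 3.39 and 3.74 at 6 hpf and 0.17, -0.12 and 0.03 at 1 hpf in MZznf598, and 4.07, 4.07 and 3.43 at 6 hpf and 0.17, 0.04 and -0.16 at 1 hpf in wild type. The counts of the pair were near balance at 1 hpf in all 6 libraries and strongly toward srsf5a at 6 hpf, a change of 3.52 in MZznf598 and 3.83 in wild type, while srsf5 itself rose 2.96-fold in each genotype. For srsf2b over srsf2a the ratio changed by 2.06 in MZznf598 and 2.27 in wild type. For hnrnpu ENSDARG00000004735 over ENSDARG00000015206 it changed by 1.25 in MZznf598 and 1.27 in wild type, with a spread within groups of 0.01 to 0.13 (SD, n = 3), the gene ENSDARG00000015206 having risen 1.94-fold in MZznf598 and 1.82-fold in wild type. The pair srsf7a and srsf7 shifted by 2.56 in MZznf598 and 2.30 in wild type, but rests on fewer than 2 CPM of srsf7.

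Smaller shifts were seen for srsf10a over srsf10b, 1.11 in MZznf598 and 0.98 in wild type, for srsf6 ENSDARG00000016783 over ENSDARG00000013729, 0.75 in MZznf598 and 0.92 in wild type, and for hnrnpab ENSDARG00000007960 over ENSDARG00000099865, 0.35 in MZznf598 and 0.76 in wild type. At 6 hpf the ratios of hnrnpab were -2.07, -2.04 and -2.31 in MZznf598 and -1.69, -1.61 and -1.49 in wild type, which did not overlap. At 1 hpf they were -2.61, -2.54 and -2.31 in MZznf598 and -2.49, -2.31 and -2.27 in wild type, which overlapped. The genotypes did not overlap either in the ratios of hnrnpu, srsf3 and prpf38a over prpf38b at 6 hpf, and of hnrnpu and srsf1 at 1 hpf. The srsf3 genes shifted by 0.78 in MZznf598, where the SD at 1 hpf was 0.49, and by 0.65 in wild type. The hnrnpk genes shifted by 0.37 in MZznf598 and 0.47 in wild type. Their ratios overlapped between the stages in each genotype, with an SD of 0.59 at 1 hpf in wild type. The genes prpf38a and prpf38b, which are distinct genes in humans and match by name only, shifted by 0.43 in MZznf598 and 0.61 in wild type. A small shift was measured for u2af2, 0.19 in MZznf598 and 0.15 in wild type, with ratios that did not overlap between the stages in either genotype. For srsf1 ENSDARG00000017843 over ENSDARG00000057691 the ratio changed by 0.27 in MZznf598 and -0.02 in wild type, where it was -1.36, -1.33 and -0.70 at 6 hpf and -1.14, -1.01 and -1.17 at 1 hpf. Replicate 3 was the highest of these at 6 hpf, and without both libraries of wild-type replicate 3 the wild-type change was -0.27.

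**Figure D3:**
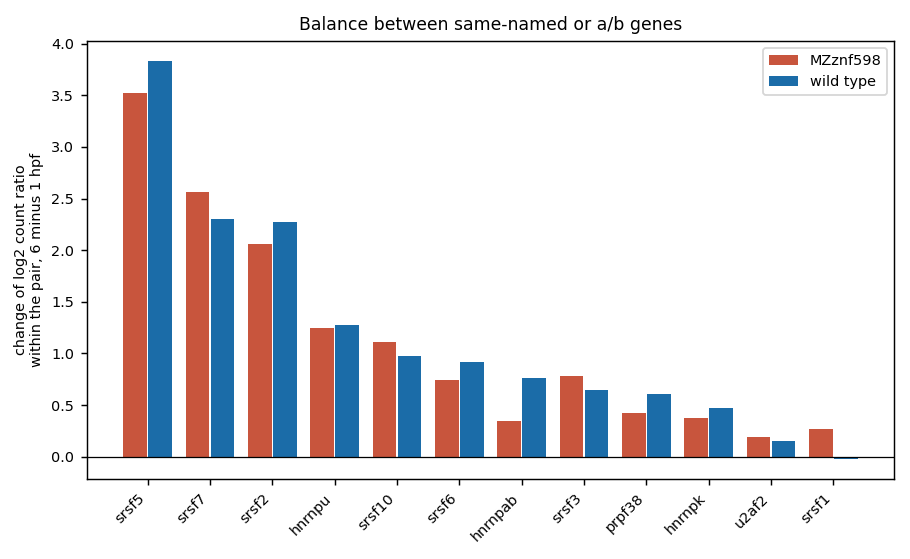
Change of the log2 count ratio within each of 12 pairs of same-named or a and b genes, 6 minus 1 hpf, as the difference of group means of 3 libraries in MZznf598 (red) and wild type (blue). The pairs srsf5, srsf7, srsf2 and hnrnpu changed by more than 1 in both genotypes.

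The changes over the MZT were much alike in the genotypes, which share no library in these comparisons. Across the 73 mRNAs all had the same sign of change in MZznf598 and wild type, as did 93.1% of all genes. The fold changes differed by a median of 0.09 on the log2 scale, against 0.23 for all genes, and by less than 0.25 for 63 of the 73. Their correlation across genes was 0.955 (Pearson) and 0.974 (Spearman), and genes are not independent replicates. The 73 mRNAs and all genes were not matched for level, which bears on the spread of fold changes.

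The test of the genotype difference itself between stages, the interaction of genotype and stage in edgeR, called none of the 73 mRNAs in either direction, where 0.284% and 0.164% of all genes were called up and down. Of the 73, 2, or 2.74%, had an unadjusted p below 0.05, srsf3 (ENSDARG00000059360) and srsf5a, against 11.03% of all genes. DESeq2 called 1 of the 73, srsf3. Without both libraries of wild-type replicate 3 the edgeR test called 1 up, srsf1 (ENSDARG00000017843), and 1 down, srsf3. The shares of all genes called in DESeq2 and without replicate 3 are not given here.

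The comparison of MZznf598 with wild type at 6 hpf asks which of these mRNAs differed without Znf598 after the MZT. No mRNA was called up or down in edgeR at an adjusted p below 0.01, where 1.76% of all genes were up and 1.75% down. A missing call does not show equal levels. Small differences were rarely called in simulated counts for all genes tested, low ones included, at the levels of wild type at 1 hpf. That rate was not measured for the 73 mRNAs at their own levels. An unadjusted p below 0.05 was found for 5 of the 73 mRNAs, or 6.85%, against 22.2% of all genes. DESeq2 called 1 up, srsf2a, and 1 down, hnrnpa1l2, and the shares of all genes that it called are not given here. The median log2 fold change was 0.01, and 67 of the 73 mRNAs, or 91.8%, differed by less than 0.25, against 53.2% of all genes. The 3 libraries of MZznf598 did not overlap those of wild type for 14 of the 73 mRNAs, or 19.2%, against 28% of all genes. The 73 mRNAs and all genes were not matched for level. Of the 73, 70 exceeded 1 CPM in all 12 libraries, where the filter asked for 3. These shares therefore do not show that the 73 mRNAs differed less than other genes of like level.

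The largest difference among well-detected mRNAs was that of hnrnpa1l2 (ENSDARG00000036675), related to the human gene of HNRNPA1, which represses splice sites. At 6 hpf it was at 463, 436 and 397 CPM in MZznf598 and at 799, 635 and 1048 CPM in wild type. The groups did not overlap, and the wild-type libraries were spread widely with replicate 3 at the top. The log2 fold change was -0.94 (SE 0.23, edgeR adjusted p = 0.024), past a threshold of 0.05 but not of 0.01. It was called without wild-type replicate 2 or replicate 3 at 1 hpf, with -0.94 in each fit, and was -0.73 without wild-type replicate 3 at 6 hpf (edgeR adjusted p = 0.094). Over all 12 fits that left out 1 library each, the adjusted p was 0.0046 to 0.098. At 1 hpf it was at 138, 131 and 150 CPM in MZznf598 and 181, 120 and 268 CPM in wild type, which overlapped (log2 fold change -0.44, edgeR adjusted p = 0.34).

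Of the other mRNAs with an unadjusted p below 0.05 at 6 hpf, srsf2a was at 995, 981 and 959 CPM in MZznf598 and 862, 859 and 844 CPM in wild type (log2 fold change 0.19, SE 0.06, edgeR adjusted p = 0.068). Its libraries were tight within each genotype and did not overlap. The mRNA of srsf5a had a log2 fold change of -0.24 (edgeR adjusted p = 0.085), with 1100, 1014 and 1095 CPM in MZznf598 below all of 1308, 1331 and 1147 CPM in wild type. The tri-snRNP mRNA prpf3 (0.24, edgeR adjusted p = 0.10) and prpf38b (0.23, edgeR adjusted p = 0.12) leaned the other way. Without wild-type replicate 3 at 6 hpf, srsf1 (ENSDARG00000017843) was called up and srsf5a was called down.

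Before the MZT, at 1 hpf, the same comparison called 1 of the 73 mRNAs up and none down in edgeR, where 1.6% of all genes were up and 2.23% down. Here 6 of the 73 mRNAs, or 8.22%, had an unadjusted p below 0.05, against 19.1% of all genes. DESeq2 called the same 1 up and none down, and the shares of all genes that it called are not given here. The median was 0.03, and 64 of the 73, or 87.7%, differed by less than 0.25, against 59.3% of all genes. Libraries of the genotypes did not overlap for 5 mRNAs, or 6.85%, against 25.8% of all genes. As at 6 hpf, the 73 mRNAs and all genes were not matched for level.

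The mRNA called up was srsf3 (ENSDARG00000059360). At 1 hpf it was at 144, 155 and 158 CPM in MZznf598 and at 90.2, 91.4 and 101 CPM in wild type. Every MZznf598 library lay well above every wild-type library, by 0.70 on the log2 scale (SE 0.07, edgeR adjusted p = 6.45e-05), and the call was kept in all 12 fits that left out 1 library each, with 0.67 to 0.75. At 6 hpf it was at 525, 512 and 538 CPM in MZznf598 and 456, 488 and 492 CPM in wild type, which did not overlap either but were closer on the log2 scale (0.13, SE 0.07, edgeR adjusted p = 0.31). The difference between the stages was -0.56 (SE 0.10, edgeR adjusted p = 0.016). It passed the threshold in DESeq2 (adjusted p = 8.13e-05), with library totals alone (edgeR adjusted p = 0.0078), without wild-type replicate 3 at 1 hpf (edgeR adjusted p = 0.0046) and without it at 6 hpf (edgeR adjusted p = 0.0083). Over all 12 fits that left out 1 library each, the edgeR adjusted p was 0.0046 to 0.058. It was highest without MZznf598 replicate 2 at 1 hpf, and most of these fits did not call it. The other srsf3 gene, ENSDARG00000025397, was at 6.98, 3.99 and 6.91 CPM in MZznf598 and 4.54, 4.46 and 3.84 CPM in wild type at 1 hpf, which overlapped (0.47, edgeR adjusted p = 0.20).

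The mRNA of hnrnpul1 (ENSDARG00000040564), which encodes a protein related to that of hnrnpu, differed most in size at 1 hpf among well-detected mRNAs. It was at 23.4, 22.9 and 24.4 CPM in MZznf598 and at 89.7, 21.9 and 87.6 CPM in wild type. Wild-type replicate 2 was thus at the level of the MZznf598 libraries and the other wild-type libraries were far above. The log2 fold change was -1.49 (SE 0.38, edgeR adjusted p = 0.028), and it was -1.91 without wild-type replicate 2 (edgeR adjusted p = 3.77e-05) and -1.21 without wild-type replicate 1 (edgeR adjusted p = 0.12). At 6 hpf hnrnpul1 was at 306, 320 and 321 CPM in MZznf598 and at 408, 350 and 585 CPM in wild type, a difference of -0.50 (SE 0.35, edgeR adjusted p = 0.46).

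The mRNA of hnrnpk (ENSDARG00000007034), whose human protein binds runs of C, was at 15.3, 12.5 and 18.2 CPM in MZznf598 and at 27.3, 27.5 and 15.5 CPM in wild type at 1 hpf, where wild-type replicate 3 lay among the MZznf598 libraries (-0.62, SE 0.20, edgeR adjusted p = 0.079). It was called down without that library. At 6 hpf it was at 33.2, 30.8 and 34.8 CPM in MZznf598 and at 42.5, 45.3 and 40.8 CPM in wild type, which did not overlap (-0.38, SE 0.20, edgeR adjusted p = 0.29). The remaining mRNAs with an unadjusted p below 0.05 at 1 hpf were hnrnpl2 (0.26) and srsf6 (ENSDARG00000016783, 0.23).

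**Figure D4:**
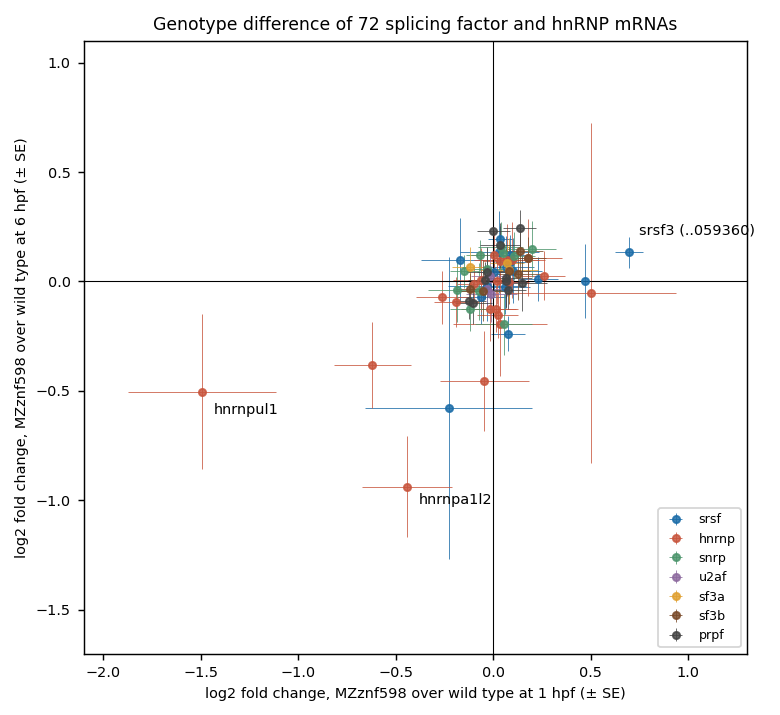
Log2 fold change of MZznf598 over wild type at 6 hpf (vertical) against that at 1 hpf (horizontal), with standard errors, for 72 of the 73 mRNAs coloured by class. The gene hnrnpa0b, with at most 1 count in any 1 hpf library, is left out. Most points lie within 0.25 of 0 on each axis, with srsf3 (ENSDARG00000059360) at 0.70 at 1 hpf and hnrnpa1l2 and hnrnpul1 below 0 at both stages.

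Across the 73 mRNAs the genotype differences at 6 and at 1 hpf had the same sign for 51, or 69.9%, against 63.7% of all genes. Their correlation across genes was 0.166 (Pearson) and 0.424 (Spearman), against 0.48 and 0.402 for all genes. These values include hnrnpa0b, with at most 1 count in any 1 hpf library. The stages share no library, but replicate numbers may pair them within a genotype. Most of the 73 mRNAs were also above their group mean in wild-type replicate 3 at both stages. The differences at the stages may therefore not be independent, which was not tested.

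The wild-type libraries of replicate 3 moved most of the 73 mRNAs together. In that replicate 58 of the 73 mRNAs at 6 hpf and 62 at 1 hpf were above their group mean, with a median deviation of 0.19 and 0.13 on the log2 scale, against -0.01 and 0.00 for all genes. In the MZznf598 libraries the count above the mean was 29 to 53, and in wild-type replicates 1 and 2 it was 12 and 25 at 6 hpf and 15 and 20 at 1 hpf. The shift of the maternal markers in these libraries stands above, and their part in the genotype comparison was not tested. The mRNA of hnrnpab (ENSDARG00000099865) shows the pattern, at 3404, 3651 and 3462 CPM in MZznf598 and 2692, 2925 and 4195 CPM in wild type at 6 hpf, and at 1176, 1252 and 1191 CPM in MZznf598 and 927, 987 and 1478 CPM in wild type at 1 hpf. Wild-type replicate 3 was above all MZznf598 libraries at both stages, and replicates 1 and 2 were below all of them.

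Without both libraries of wild-type replicate 3, a set left out after the data were seen, 8 of the 73 mRNAs were up and 1 was down in MZznf598 at 6 hpf, where 5.6% of all genes were up and 5.83% down. Those up were hnrnpu (ENSDARG00000004735, 0.19), hnrnpab (ENSDARG00000099865, 0.32), hnrnpk (ENSDARG00000018914, 0.26), srsf1 (ENSDARG00000017843, 0.47), srsf6 (ENSDARG00000013729, 0.27), srsf11 (0.24), snrpb (0.30) and sf3b5 (0.29), and srsf5a was down (-0.30), all as log2 fold changes. At 1 hpf 5 were up and 1 was down, where 6.38% of all genes were up and 5.74% down. These were srsf3 (ENSDARG00000059360, 0.75), hnrnpl2 (0.38), snrpb (0.35), hnrnpab (ENSDARG00000099865, 0.33) and prpf39 (0.32), with hnrnpk (ENSDARG00000007034, -0.84) down. The median of the 73 mRNAs was 0.11 at each stage in this fit, against -0.01 for all genes at 6 hpf and 0.01 at 1 hpf. The count of rises between stages was not altered, with 69 mRNAs up in each genotype, but single wild-type changes moved. The change of srsf1 (ENSDARG00000017843) was 1.54, against 1.97 with all libraries, and that of hnrnpc was -0.11, against -0.27.

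**Figure D5:**
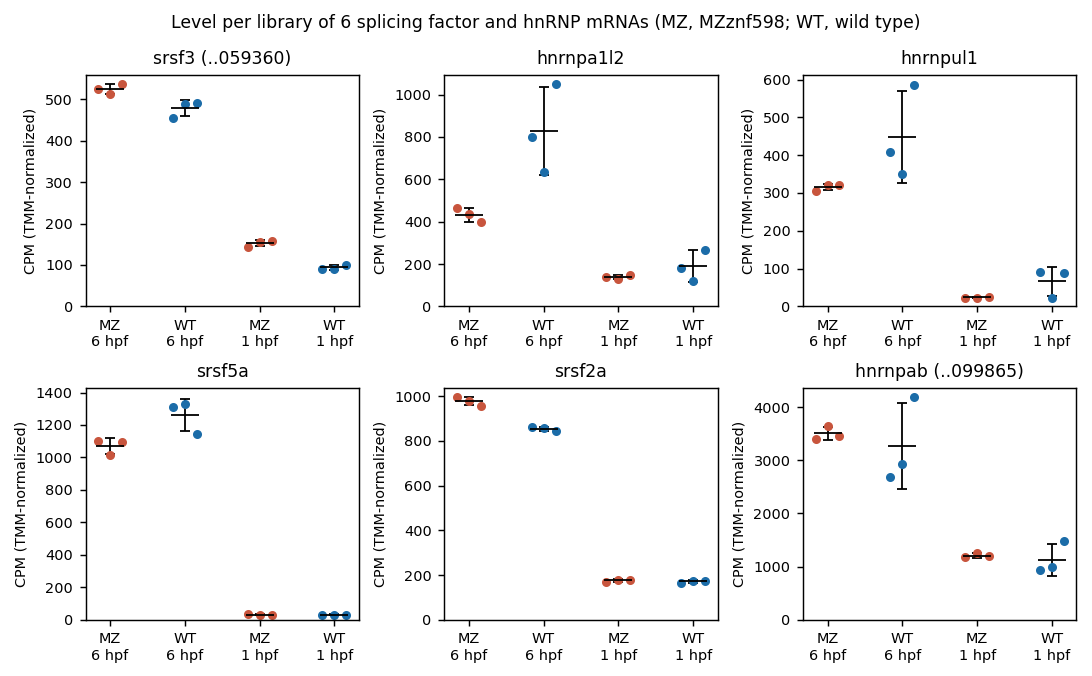
Level per library, in TMM-normalized CPM on linear axes from 0, of 6 mRNAs in MZznf598 (MZ, red) and wild type (WT, blue) at 6 and 1 hpf. Points are libraries in the order of replicates 1 to 3, and lines with error bars are mean and SD (n = 3). For hnrnpab (ENSDARG00000099865) and hnrnpa1l2 replicate 3 is the highest wild-type library at each stage, whereas for srsf3 (ENSDARG00000059360) at 1 hpf all MZznf598 libraries lie above all wild-type libraries.

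Other genes of splicing were counted for comparison from a list of spliceosome proteins, helicases, kinases of SR proteins and tissue-specific regulators, with 127 genes matched and 112 tested. Over the whole list their changes were more mixed. In MZznf598 77 rose and 20 fell at 6 over 1 hpf, with a median log2 fold change of 0.96. These were 68.8% and 17.9% of the 112, where 36.3% of all genes rose and 33.7% fell. In wild type 74 rose and 20 fell, or 66.1% and 17.9%, with a median of 0.93, where 36.5% of all genes rose and 33.9% fell. The wild-type falls included the regulators celf2, celf3, celf4, elavl2, mbnl1 and rbfox3 and the kinase clk2. Of these, celf4 had passed the filter only through libraries at 1 hpf, where it is higher, so its direction is a description only. The counts of rises and falls include such genes. Many mRNAs of spliceosome proteins and helicases rose there, among them snrnp200 (2.77), crnkl1 (2.40), ddx23 (1.77) and eftud2 (1.39). Others of this kind fell, such as pdcd7 (-1.62) and zmat5 (-1.69), and cwc27 was not called. A rise was thus not confined to the genes chosen by symbol prefix, and 36.5% of all genes rose in wild type. Of the 7 genes lsm2 to lsm8, whose proteins form the ring on U6, 3 rose, 2 fell and 2 were not called in MZznf598, and 4 rose, 2 fell and 1 was not called in wild type. The 2 that fell were lsm2, with log2 fold changes of -3.37 in MZznf598 and -2.60 in wild type, and lsm4, with -1.86 in MZznf598 and -1.29 in wild type. Of the 7 genes with a snrnp symbol, 5 rose in MZznf598 and 4 in wild type, among them snrnp70 of U1, 6.67-fold in MZznf598 and 7.43-fold in wild type, whereas snrnp35 of the minor spliceosome fell in each (-0.86 in MZznf598 and -0.70 in wild type). The largest rises by fitted value in wild type were those of elavl3 and esrp1. The first of these had passed the filter only through libraries at 6 hpf, where it is higher, so its direction is a description only. The neuronal regulator elavl3 (ENSDARG00000014420) had at most 2 counts in a MZznf598 library and at most 1 in a wild-type library at 1 hpf, and at 6 hpf was at least 19.4-fold higher in MZznf598, at 4.66 ± 0.654 CPM, and at least 18.5-fold higher in wild type, at 4.53 ± 1.24 CPM (SD, n = 3).

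The epithelial regulator esrp1 (ENSDARG00000011245) was at 279, 262 and 283 CPM at 6 hpf in MZznf598 and 272, 273 and 228 CPM in wild type, where it was at 2.96, 2.10 and 0.980 CPM at 1 hpf (6.95, SE 0.21, edgeR adjusted p = 6.00e-12). The largest fall in either genotype was that of lsm1 (ENSDARG00000043177), at 8.83, 7.60 and 7.57 CPM at 6 hpf and 86.6, 86.0 and 78.4 CPM at 1 hpf in MZznf598, and at 9.36, 10.6 and 5.93 CPM at 6 hpf and 83.0, 83.5 and 82.4 CPM at 1 hpf in wild type (-3.25, SE 0.15, edgeR adjusted p = 3.94e-10). Its protein belongs to an Lsm ring of mRNA decay, not of splicing, and matched the list by name. The lsm prefix also brought in lsm11, lsm12, lsm12b, lsm14a, lsm14aa and lsm14b, which lie outside the ring on U6. In wild type lsm11 (-2.11), lsm12 (-0.76) and lsm14b (-2.56) fell and are counted among the falls above. There lsm14a rose (0.81), and lsm12b (-0.08) and lsm14aa (-0.02) were not called.

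In the genotype comparisons 1 of these 112 mRNAs was called at 6 hpf, lsm14aa (ENSDARG00000006600), a protein of P-bodies, at 250, 260 and 263 CPM in MZznf598 and 191, 187 and 183 CPM in wild type (0.46, SE 0.06, edgeR adjusted p = 6.65e-04). At 1 hpf rbm39b (ENSDARG00000041853), a splicing coactivator, was up, at 122, 120 and 120 CPM in MZznf598 and 86.6, 91.4 and 99.0 CPM in wild type (0.38, SE 0.07, edgeR adjusted p = 0.0052). The mRNA of esrp1 was down at 1 hpf, at 0.575, 0.489 and 0.562 CPM in MZznf598 and 2.96, 2.10 and 0.980 CPM in wild type (-1.91, SE 0.36, edgeR adjusted p = 0.0050). These calls were 0.893% of the 112 up at 6 hpf, and 0.893% up and 0.893% down at 1 hpf. For all genes the shares were 1.76% up and 1.75% down at 6 hpf, and 1.6% up and 2.23% down at 1 hpf. The interaction called none of the 112, of which 9, or 8.04%, had an unadjusted p below 0.05, against 11.03% of all genes.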

How the data were processed

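RNA-Seq libraries of whole embryos were analyzed. The authors deposited read counts per Ensembl gene, 1 table a library, raw and not normalized. According to the labels and the study's methods, ribosomal RNA was removed, stranded single-end libraries were aligned to GRCz11 with STAR 2.7.8a allowing 1 mismatch and 1 location, and reads were counted with featureCounts. The gene annotation's release and whether counting used strand are not given in the sources used here, so reads of antisense partners cannot be told apart. No molecular identifiers were used. Reads that align equally to near-identical paralogs are not counted.

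Groups came from the labels. In R 4.3.3, edgeR 4.0.16 fitted 4 group means to the counts of 12 libraries (quasi-likelihood, robust, TMM, 8 residual degrees of freedom, common biological coefficient of variation 0.154). Genes above 1 CPM in at least 3 libraries were tested and 9603 were removed. Tests were 2-sided, adjusted by Benjamini-Hochberg over all 15829 genes and called at 0.01. The SE was taken as log2 fold change, without sign, divided by the square root of F. CPM are TMM-normalized. Pair ratios used a prior of 0.5 counts. The scripts were tested on simulated counts for all 15829 genes, low ones included, drawn at the levels of wild type at 1 hpf. In each run 200 genes were changed between the genotypes at 6 hpf. At the threshold used, 5% of changes of 1.5-fold, 42.5% of 2-fold and 75.5% of 4-fold were called.

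Symbols came from a table of names, for 23608 of 25432 genes, matched without regard to case. The genes, lists and tests were chosen with earlier results of these data known. Named by rule were znf598, genes called between genotypes, the largest rise and fall of each class, pairs with the largest differences and genes failing the filter. Further genes were named after their values were seen, to cover each class. No sequence or coordinate was used here.

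Replicate numbers were checked for pairing by the correlation of deviations from group means across genes. It was 0.156 to 0.224 in the 6 pairs of the same genotype and number at different stages. For different numbers it was -0.181 to 0.065, so the numbers may pair the stages within a genotype. Between genotypes at the same stage it was -0.126 to 0.087 at the same number and -0.168 to 0.193 at different numbers. No pairing of the genotypes was seen there. The labels state no pairing, and it was not tested. Alternatives were RLE size factors, DESeq2 1.42.0, no filter, a threshold of 0.05, blocks, the libraries of a comparison alone and leaving out each library. Library totals alone and leaving out both wild-type replicate 3 libraries were added after seeing the data.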

Additional observations from a re-analysis of the deposited data

How the results depend on the processing

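Over the alternatives run, 65 to 69 mRNAs rose over the MZT in MZznf598 and 64 to 69 in wild type, and 68 to 69 in each when 1 library was left out. The lowest counts were those with library totals alone, where 4 of the 69 rises were lost in MZznf598 and 5 in wild type. Counts of falls and of genotype calls are small and moved, and are given here without the shares of all genes called under each alternative. In wild type, falls numbered 2 with no filter on low counts, 2 at an adjusted p below 0.05, 1 with a replicate block across all libraries, 4 with library totals alone and 0 to 1 when 1 library was left out. In MZznf598 they numbered 1 with RLE size factors, 1 in DESeq2, 3 at an adjusted p below 0.05, 4 with library totals alone and 1 to 2 when 1 library was left out.

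At 6 hpf, mRNAs up in MZznf598 numbered 1 in DESeq2, 8 without both wild-type replicate 3 libraries and 0 to 1 when 1 library was left out, and those down numbered 1 in DESeq2, 1 at an adjusted p below 0.05, 1 without both wild-type replicate 3 libraries and 0 to 1 when 1 library was left out. At 1 hpf, 5 were up without both wild-type replicate 3 libraries, and 1 was down without them, 1 at an adjusted p below 0.05 and 0 to 1 when 1 library was left out. The interaction called 1 up without both wild-type replicate 3 libraries, and 1 down without them, 1 in DESeq2, 1 at an adjusted p below 0.05, 1 with library totals alone and 0 to 1 when 1 library was left out. Where a group kept 2 libraries, its spread was taken from all groups. The cause of these differences was not tested.

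With the replicate block within genotype, which takes the stages as paired by number, 69 mRNAs rose in each genotype, 2 fell in MZznf598 and 0 fell in wild type, and no call changed. The block across all libraries, which takes the genotypes as paired by number too, called hnrnph3 down in wild type (edgeR adjusted p = 0.0078) and changed no other count. No fit of the data reversed the direction of a called mRNA. Low counts limit hnrnpa0b, hnrnph3 and srsf7, and unique alignment limits the values of near-identical pairs.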
